A study of Mus musculus with 8 samples.

Results

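9 genes that mark or build the formative and primed epiblast were followed across mouse embryonic stem (ES) cells and embryoid bodies labelled as Skp1a knockout or fl/fl: Fgf5, Otx2, Pou3f1, Zic2, Zic5, Sox3, Sall2, Foxd3 and Grhl2. They were taken by symbol from the 36255 gene rows of the deposited count table. All 9 passed the filter on low counts, which kept 16542 genes. The 4 groups, with 2 libraries each, were day 2 embryoid bodies (EBd2, floating balls of ES cells that have started to differentiate) labelled as Skp1a knockout (KO) or Skp1a fl/fl, and undifferentiated ES cells labelled KO or fl/fl. In fl/fl cells both copies of Skp1a carry loxP sites and are not deleted. SKP1A is the adaptor that joins CUL1 to F-box proteins in SCF ubiquitin ligases. The lots that number the libraries are 1 and 2 in KO EBd2, 1 and 12 in fl/fl EBd2, 1 and 12 in KO ES cells, and 1 and 2 in fl/fl ES cells. Whether a lot is a culture, a clone or a preparation, how the KO was made, and the medium beyond a standard one are not stated in the labels, so the p-values cover the spread between libraries alone, and that spread may be technical.

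Naive ES cells resemble the epiblast of the blastocyst before implantation. When they leave that state they pass through a formative stage, in which they become able to respond to germ layer signals, and then a primed stage that resembles the epithelial egg cylinder. OTX2 and the POU factor POU3F1 (OCT6) are switched on early in this transition, and OTX2 helps OCT4 to occupy a new set of enhancers. FGF5 is the classical secreted marker of the epiblast after implantation. GRHL2 keeps epithelial enhancers open in formative cells, and FOXD3, SALL2, SOX3 and the ZIC proteins are further transcription factors of pluripotent cells and early ectoderm.

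Libraries held between 7858452 and 23343471 counts, with fewer in EBd2 (7858452 to 10055667) than in ES cells (21545868 to 23343471). The tissue label goes against the titles: it names every KO library as ES cells and every fl/fl one as an embryoid body. The groups here follow the titles. Skp1a itself had 285.8 and 289.6 CPM (counts scaled to a common library total, with TMM factors) in KO EBd2, against 401.4 and 389.1 CPM in fl/fl EBd2, and 368.9 and 361.3 CPM in KO ES cells, against 420.2 and 430.3 CPM in fl/fl ES cells. The KO thus kept 72.8% of the fl/fl level in EBd2 and 85.9% in ES cells. The labels do not say which exons were deleted, so counts over the whole gene do not check the label, and KO below means labelled KO. Mitochondrially encoded genes took 3.15% and 3.24% of counts in KO EBd2, against 2.70% and 2.28% in fl/fl EBd2. In ES cells they took 2.43% and 2.42% in KO, against 1.76% and 1.73% in fl/fl. The part of these differences in the results was not tested.

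The 9 genes lie on 5 chromosomes (build GRCm38, GENCODE vM21 annotation). 4 of them are on chromosome 14: Otx2 (48657677 to 48673819, minus strand), Sall2 (52311172 to 52328762, minus strand), Zic5 (122456795 to 122465677, minus strand) and Zic2 (122475435 to 122479852, plus strand). Zic2 and Zic5 point away from each other, with their starts 9758 bp apart. Foxd3 (99656299 to 99658622, plus strand) and Pou3f1 (124656807 to 124660655, plus strand) are on chromosome 4, Fgf5 (98254184 to 98277030, plus strand) on chromosome 5, Grhl2 (37233036 to 37363569, plus strand) on chromosome 15 and Sox3 (60891366 to 60893430, minus strand) on chromosome X. Antisense or same-strand transcripts are annotated over Otx2 (Otx2os1, Gm49154), Pou3f1 (Gm2164), Foxd3 (Gm23366) and Grhl2 (Gm16136, Gm16137). They were not analysed here, and since the labels do not say whether counting used strand, their reads cannot be told apart from those of these genes.

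Promoter windows of 250 bases before a RefSeq transcript start (GRCm38.p6) were matched for 5 of the 9 genes, 9 windows in all: Otx2, Zic5, Fgf5, Foxd3 and Sall2. 4 of them are printed, those of Otx2 and Zic5, which did not gain in KO EBd2, and those of Fgf5 and Foxd3, which still rose there. They are written 5′ to 3′ on the gene's strand, with CG steps in capitals.
Otx2, chr14:48667645-48667894, minus strand: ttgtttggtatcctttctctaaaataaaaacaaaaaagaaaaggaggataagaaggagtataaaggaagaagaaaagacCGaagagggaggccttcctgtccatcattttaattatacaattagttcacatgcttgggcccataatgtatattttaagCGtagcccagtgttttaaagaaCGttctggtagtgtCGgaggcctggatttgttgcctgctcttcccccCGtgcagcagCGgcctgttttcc
Zic5, chr14:122465659-122465908, minus strand: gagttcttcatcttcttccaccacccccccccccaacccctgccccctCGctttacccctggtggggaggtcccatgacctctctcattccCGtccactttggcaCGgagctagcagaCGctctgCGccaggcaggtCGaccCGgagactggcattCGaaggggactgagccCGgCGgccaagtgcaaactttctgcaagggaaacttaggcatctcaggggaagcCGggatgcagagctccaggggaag
Fgf5, chr5:98253934-98254183, plus strand: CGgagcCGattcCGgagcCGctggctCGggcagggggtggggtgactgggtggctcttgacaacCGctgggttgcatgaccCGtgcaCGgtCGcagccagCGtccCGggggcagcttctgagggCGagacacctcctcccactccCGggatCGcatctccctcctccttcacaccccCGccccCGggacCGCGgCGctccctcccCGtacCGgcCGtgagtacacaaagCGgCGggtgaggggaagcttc
Foxd3, chr4:99656049-99656298, plus strand: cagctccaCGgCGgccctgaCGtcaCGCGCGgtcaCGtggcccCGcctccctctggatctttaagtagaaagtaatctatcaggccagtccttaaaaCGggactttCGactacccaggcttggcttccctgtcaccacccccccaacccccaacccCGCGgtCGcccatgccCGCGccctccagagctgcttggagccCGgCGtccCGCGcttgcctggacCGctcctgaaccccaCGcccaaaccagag
The windows of Fgf5 and Foxd3 held 24 and 21 CG steps, and 16.3% of all 32851 mouse windows of this length held at least 21. The printed windows of Otx2 and Zic5, the second with 19 bases inside an annotated exon, held 6 and 11, against a median of 6 over all windows. The other 3 windows of Otx2 held 8, 9 and 14, and the 2 of Sall2, which also rose in KO EBd2, held 6 and 0, so the numbers of CG steps overlap between the genes that gained and those that did not. 4 of the windows searched belong to Otx2 and 2 to Sall2, so the 9 windows are not independent. The Otx2 windows not printed held 138, 250 and 136 bases inside annotated exons, and the Sall2 window with 0 CG steps held 92. On either strand, the OTX2 homeodomain motif TAATCC was in 1 of the 9 windows and in 6.3% of all windows. That window, before another start of Otx2 itself, is the one with all 250 bases inside annotated exons. The POU octamer ATGCAAAT (1.6% of all windows), the grainyhead palindrome AACCGGTT (0.1%) and the ZIC motif CAGCAGG (8.4%) were in 0 of the 9, and TATAAA was in 2 of the 9, against 12.4% of all windows. None of these strings contains another, and no match says only that these letters are not in these windows.

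In fl/fl cells all 9 genes rose in EBd2 relative to ES cells by edgeR's quasi-likelihood test (Benjamini-Hochberg adjusted p at or under 0.05, the threshold for every call here), where 28.9% of the 16542 genes tested did. 8 of the 9 were called and at least 2-fold higher, against 7.47% of all genes. Their median log2 fold change was 3.06, against -0.02 over all genes. In KO cells the same step moved the genes in 3 ways: 7 rose (31.7% of all genes tested did), 1 fell (33.1% did) and 1 was not called. 4 rose by at least 2-fold (11.6% of all genes), and the 1 that fell did so by at least 2-fold (8.02%). The median in KO was 0.76. Set against fl/fl EBd2, KO EBd2 were lower for 8 of the 9 genes, where 31.5% of all genes were called lower and 30.7% higher, and lower by at least 2-fold for 7, where 6.17% were. Their median log2 fold change was -1.85, against 0.00 over all genes. The KO effect in EBd2 minus that in ES cells (the interaction of genotype and stage) was called negative for the same 8 genes, where 25.7% of all genes were called negative and 22.4% positive, with a median of -2.24. Summed over the 9 genes, KO EBd2 held 182 and 163 CPM, fl/fl EBd2 688 and 716 CPM, KO ES cells 116 and 112 CPM and fl/fl ES cells 123 and 117 CPM.

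**Figure D1:**
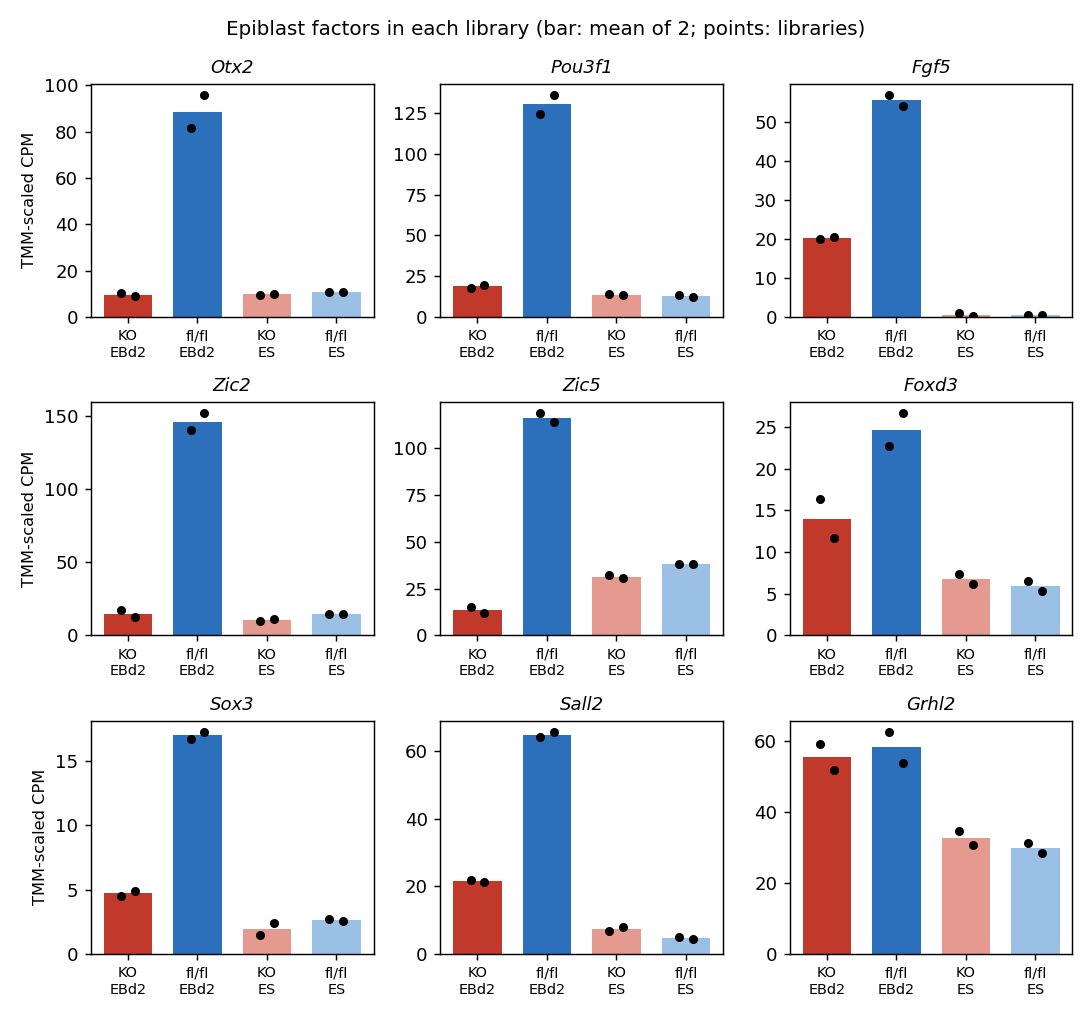
TMM-scaled CPM of each of the 9 genes, 1 panel a gene with its own linear axis from 0, for KO EBd2, fl/fl EBd2, KO ES cells and fl/fl ES cells from left to right; bars are means of 2 libraries and points are the libraries. Otx2 stands at 8.85 to 10.8 CPM in every library but the fl/fl EBd2 ones, while the points of Grhl2 overlap between KO EBd2 and fl/fl EBd2.

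Fgf5, the secreted ligand of the group, rose strongly in both genotypes and ended lower in KO. It had 20.1 and 20.5 CPM in KO EBd2, 57.1 and 54.2 CPM in fl/fl EBd2, against 0.892 and 0.278 CPM in KO ES cells and 0.539 and 0.537 CPM in fl/fl ES cells. The 2 KO EBd2 libraries lie between those of fl/fl EBd2 and those of ES cells and overlap with neither. The log2 fold change of EBd2 against ES cells was 5.08 ± 0.22 in KO (SE, adjusted p = 5.71e-09) and 6.67 ± 0.19 in fl/fl (adjusted p = 3.45e-10). The ES cell values rest on 20 and 6 counts in KO and 12 and 11 counts in fl/fl, so both folds carry that counting error. KO EBd2 reached 36.4% of the fl/fl EBd2 level (-1.45 ± 0.12, adjusted p = 9.59e-07). The interaction was -1.59 ± 0.46 (adjusted p = 0.0142), and without the lot 1 library of KO ES cells, the one with 20 counts, it was -0.52 with an adjusted p of 0.579.

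Otx2 and Pou3f1, the 2 factors that lead cells out of the naive state, stayed near their ES cell level in KO EBd2. Otx2 had 10.2 and 8.85 CPM in KO EBd2, 81.5 and 96.0 CPM in fl/fl EBd2, against 9.54 and 9.73 CPM in KO ES cells and 10.8 and 10.5 CPM in fl/fl ES cells. Fl/fl EBd2 stand alone, and the other 3 groups lie within 2 CPM of each other. Its change in EBd2 against ES cells was -0.02 ± 0.13 in KO (adjusted p = 0.897, 95% interval -0.30 to 0.26), against 3.06 ± 0.09 in fl/fl (adjusted p = 5.11e-10). Of the gain of 78.1 CPM in fl/fl, KO cells made -0.12 CPM. Pou3f1 had 17.7 and 19.7 CPM in KO EBd2, 124.4 and 136.4 CPM in fl/fl EBd2, against 13.9 and 13.3 CPM in KO ES cells and 13.7 and 11.97 CPM in fl/fl ES cells. Here the KO EBd2 libraries were above all ES cell libraries, by little: the rise was 0.46 ± 0.10 in KO (adjusted p = 0.00168) and 3.35 ± 0.08 in fl/fl (adjusted p = 8.74e-11), and 4.35% of the fl/fl gain in CPM was made in KO. KO EBd2 held 10.7% of the fl/fl EBd2 level of Otx2 (-3.23 ± 0.11, adjusted p = 8.52e-10) and 14.3% of that of Pou3f1 (-2.80 ± 0.08, adjusted p = 4.53e-10). The interactions were -3.08 ± 0.16 (adjusted p = 7.44e-08) and -2.88 ± 0.13 (adjusted p = 2.93e-08).

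Zic2 and Zic5, the divergent zinc finger pair, ended at nearly the same fraction of the fl/fl level but came to it from different starts. Zic2 had 17.1 and 12.3 CPM in KO EBd2, 140.5 and 152.2 CPM in fl/fl EBd2, against 9.77 and 10.8 CPM in KO ES cells and 14.3 and 14.7 CPM in fl/fl ES cells. Zic5 had 15.1 and 11.9 CPM in KO EBd2, 118.7 and 114.1 CPM in fl/fl EBd2, against 32.1 and 30.7 CPM in KO ES cells and 38.4 and 38.3 CPM in fl/fl ES cells. For Zic2 the KO EBd2 libraries were above the KO ES libraries, and for Zic5 they were below all other libraries. Relative to ES cells, Zic5 fell in EBd2 by 1.22 ± 0.09 on the log2 scale in KO (adjusted p = 3.94e-07), the only fall among the 9 genes, and rose by 1.60 ± 0.06 in fl/fl (adjusted p = 3.24e-09). Zic2 rose by 0.51 ± 0.14 in KO (adjusted p = 0.00639) and by 3.33 ± 0.09 in fl/fl (adjusted p = 3.12e-10). The small rise of Zic2 in KO was 0.25 with an adjusted p of 0.130 without the lot 1 library of KO EBd2. KO EBd2 held 10.1% of the fl/fl EBd2 level of Zic2 (-3.32 ± 0.11, adjusted p = 6.55e-10) and 11.6% of that of Zic5 (-3.11 ± 0.08, adjusted p = 2.14e-10). The interactions were -2.83 ± 0.16 (adjusted p = 1.90e-07) for Zic2 and -2.82 ± 0.11 (adjusted p = 1.17e-08) for Zic5. By fitted fold change in KO against fl/fl EBd2, Zic2, Otx2, Zic5 and Pou3f1 stood at places 95, 99, 110 and 136 from the lowest of 16542 genes.

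Sall2, Sox3 and Foxd3 rose in KO EBd2 but less than in fl/fl. Sall2, a spalt zinc finger protein, had 21.8 and 21.3 CPM in KO EBd2, 64.0 and 65.7 CPM in fl/fl EBd2, against 6.87 and 7.83 CPM in KO ES cells and 5.08 and 4.25 CPM in fl/fl ES cells. Its rise was 1.55 ± 0.10 in KO (adjusted p = 1.45e-07), against 3.79 ± 0.10 in fl/fl (adjusted p = 1.66e-10). Sox3, which shares its SoxB1 class with SOX2, had 4.51 and 4.92 CPM in KO EBd2, 16.7 and 17.3 CPM in fl/fl EBd2, against 1.47 and 2.36 CPM in KO ES cells and 2.70 and 2.54 CPM in fl/fl ES cells. It rose by 1.30 ± 0.22 in KO (adjusted p = 0.000294), against 2.70 ± 0.18 in fl/fl (adjusted p = 1.90e-07). For both genes the KO EBd2 libraries lay between those of fl/fl EBd2 and those of ES cells and overlapped with neither. Foxd3, a forkhead factor that also specifies neural crest, had 16.4 and 11.6 CPM in KO EBd2, 22.7 and 26.7 CPM in fl/fl EBd2, against 7.31 and 6.21 CPM in KO ES cells and 6.56 and 5.37 CPM in fl/fl ES cells. The KO EBd2 libraries differed more between themselves here, yet did not overlap with fl/fl EBd2. It rose by 1.04 ± 0.17 in KO (adjusted p = 0.000236) and by 2.05 ± 0.17 in fl/fl (adjusted p = 9.67e-07).

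In KO EBd2, Sox3 stood at 27.7% of the fl/fl EBd2 level (-1.85 ± 0.18, adjusted p = 4.08e-06), Sall2 at 33.2% (-1.59 ± 0.09, adjusted p = 3.06e-08) and Foxd3 at 56.7% (-0.83 ± 0.16, adjusted p = 0.000906). Foxd3 was the only one of the 8 called genes under 2-fold, and a test against 1.5-fold gave an adjusted p of 0.0916 for it. The share of the fl/fl gain in CPM that was made in KO ran from 19.4% for Sox3 over 23.6% for Sall2 and 35.7% for Fgf5 to 38.7% for Foxd3. The interactions were -1.40 ± 0.29 for Sox3 (adjusted p = 0.0019), -2.24 ± 0.15 for Sall2 (adjusted p = 4.45e-07) and -1.01 ± 0.24 for Foxd3 (adjusted p = 0.00452).

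Grhl2, the epithelial factor, was the gene not called between KO and fl/fl EBd2. It had 59.1 and 51.8 CPM in KO EBd2, 62.6 and 53.9 CPM in fl/fl EBd2, against 34.5 and 30.6 CPM in KO ES cells and 31.3 and 28.4 CPM in fl/fl ES cells. The 2 EBd2 groups overlap, and all EBd2 libraries lie above all ES cell libraries. It rose by 0.76 ± 0.09 in KO (adjusted p = 1.84e-05) and by 0.96 ± 0.10 in fl/fl (adjusted p = 5.65e-06). The difference in EBd2 was -0.07 ± 0.10 (adjusted p = 0.557, 95% interval -0.28 to 0.14) and the interaction -0.19 ± 0.13 (adjusted p = 0.25, 95% interval -0.48 to 0.09). These intervals leave room for a small difference. KO EBd2 made 80.5% of the fl/fl gain in CPM.

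**Figure D2:**
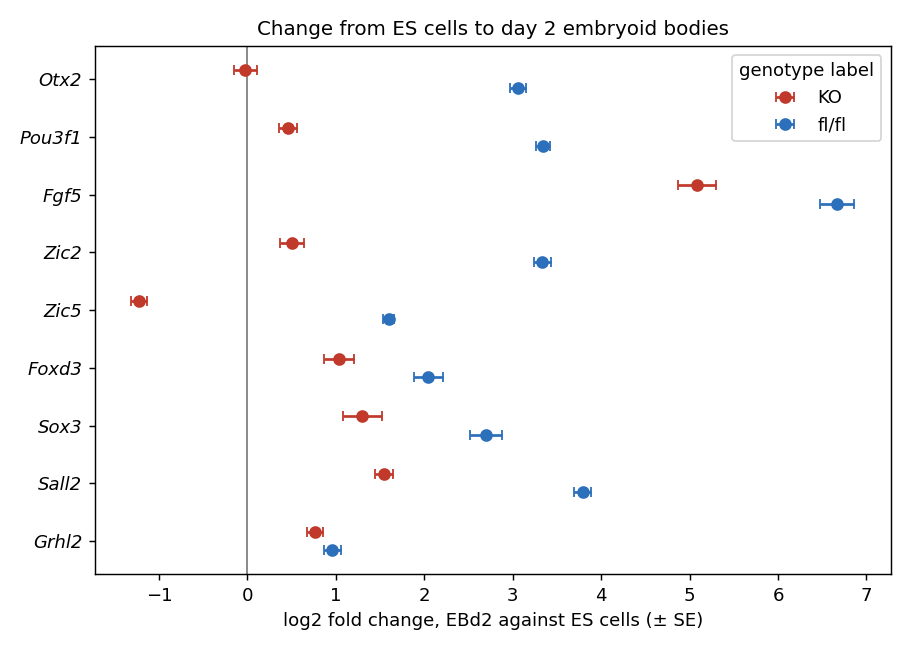
Fitted log2 fold change of EBd2 against ES cells for each gene, with KO above fl/fl in each row; bars are SE. Otx2 lies at -0.02 in KO against 3.06 in fl/fl, Zic5 is the one gene below -1 in KO, and the 2 values of Grhl2 (0.76 and 0.96) lie closest together.

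In ES cells the fitted differences of the 9 genes between the genotypes were all under 2-fold. Of the 9 genes, 1 was called higher in KO, Sall2 (0.65 ± 0.12, adjusted p = 0.00265), where 10.9% of the genes tested were, and 2 were called lower, Zic2 (-0.49 ± 0.12, adjusted p = 0.0114) and Zic5 (-0.29 ± 0.07, adjusted p = 0.00852), where 12.8% were. The median of the 9 was 0.08, and 1.24% of all genes were called with at least 2-fold in either direction, none of these 9 among them. The other 6 genes were not called, with adjusted p between 0.155 and 0.859: Otx2 differed by -0.15 ± 0.11 (95% interval -0.39 to 0.09), Pou3f1 by 0.08 ± 0.09 (-0.12 to 0.29), Foxd3 by 0.18 ± 0.17 (-0.20 to 0.56), Grhl2 by 0.13 ± 0.09 (-0.07 to 0.32), Sox3 by -0.45 ± 0.22 (-0.93 to 0.02) and Fgf5 by 0.13 ± 0.43 (-0.82 to 1.08). Fgf5, with the widest interval, had 6 to 20 counts per library. The calls of Zic2 and Zic5 depended on single libraries. Zic2 had an adjusted p of 0.0942 without the lot 1 library of KO ES cells, and 0.0564 and 0.0749 without the lot 1 and lot 2 libraries of fl/fl ES cells. Zic5 had 0.0653 without the lot 12 library of KO ES cells, and 0.0571 and 0.0609 without the lot 1 and lot 2 libraries of fl/fl ES cells. Sox3 was called lower (-0.83, adjusted p = 0.0337) without the lot 12 library of KO ES cells.

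Corrected for exon length, the order of the levels changed between the groups. In KO EBd2, Fgf5 led with 8.11 CPM per kilobase, followed by Grhl2 (6.44), Foxd3 (6.02), Zic2 (5.12), Pou3f1 (4.86), Sall2 (3.96), Zic5 (2.76), Sox3 (2.28) and Otx2 (2.26). In that order, Grhl2 and Foxd3, Foxd3 and Zic2, Zic2 and Pou3f1, and Sox3 and Otx2 had overlapping libraries. In fl/fl EBd2, Zic2 led with 50.8 CPM per kilobase, followed by Pou3f1 (33.9), Zic5 (23.8), Fgf5 (22.3), Otx2 (21.0), Sall2 (11.9), Foxd3 (10.6), Sox3 (8.24) and Grhl2 (6.76), and of the neighbours in this order only Fgf5 and Otx2 overlapped. Grhl2 was thus the lowest of the 9 genes in fl/fl EBd2 and next to the highest in KO EBd2, at levels of 6.76 and 6.44. In ES cells Zic5 led in both genotypes (6.42 CPM per kilobase in KO and 7.85 in fl/fl) and Fgf5 was last (0.23 and 0.22).

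The genes whose profile over the 8 libraries was most like each of the 9 were ranked by the root mean square difference of centred log2 CPM among 11575 candidates, as a description. Zic2 (0.25) was the second nearest gene to Otx2, after the cannabinoid receptor Cnr1 (0.22) and before Brsk2 (0.26). Otx2 was the nearest gene to Zic2, followed by Clca4a (0.31) and Pou3f1 (0.33). Pou3f1 was nearest to the DNA methyltransferase gene Dnmt3b (0.18), Spon1 (0.19) and the kinase gene Pim2 (0.22). Zic5 was nearest to Myb (0.14), Cthrc1 (0.15) and the hedgehog receptor Ptch1 (0.18), which had a mean of 49.5 CPM in KO EBd2, 333.6 CPM in fl/fl EBd2, against 109.3 CPM in KO ES cells and 145.7 CPM in fl/fl ES cells. Foxd3 was nearest to Ramp2 (0.20), Cd24a (0.21) and Ksr2 (0.22), Sox3 to Cend1 (0.27), Prickle1 (0.27) and Slc27a2 (0.27), and Sall2 to Tcerg1l (0.25), Sema6a (0.28) and Lpar4 (0.29). Grhl2 had the closest matches, Prpf31 (0.08) and Emc8 (0.08), and Fgf5 the most distant, Muc13 (0.92), Cyp26a1 (0.99) and Vrtn (1.04). These differences were not scaled to the size of a gene's change. From ES cells to EBd2 in fl/fl, that change was 0.96 for Grhl2 and 6.67 for Fgf5 on the log2 scale. Their distances therefore do not compare how well the shapes of the profiles match. Among the 9 themselves, Otx2, Zic2 and Pou3f1 lay within 0.33 of each other, and Zic2 and Zic5, which share a locus, were 0.87 apart.

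Neighbours within 50 kb gave values for Sall2 and Pou3f1. Beside Sall2, Mettl3 was lower in KO EBd2 (28.6 and 29.96 CPM) than in fl/fl EBd2 (42.8 and 45.1 CPM; -0.59 ± 0.07, adjusted p = 1.97e-05), and Rab2b likewise, with 8.23 and 7.96 CPM in KO EBd2 and 18.1 and 14.7 CPM in fl/fl EBd2 (-1.01 ± 0.13, adjusted p = 3.95e-05). Tox4 was not called (0.01 ± 0.04, adjusted p = 0.884). Beside Pou3f1, Utp11 (0.06 ± 0.07, adjusted p = 0.457) and Fhl3 (-0.33 ± 0.14, adjusted p = 0.0667) were not called. The pseudogene Gm48909 near Otx2 had at most 4 counts over the libraries of a group in EBd2.

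Close relatives of the 9 genes did not share one direction. Of 19 listed paralogs 12 passed the filter. In KO against fl/fl EBd2 5 were called higher (30.7% of all genes were) and 5 lower (31.5% were), with a median of 0.54. With at least 50 counts asked for in 2 libraries, 2 were called higher, and a test against 1.5-fold called 3 lower. Sall1, the paralog of Sall2, was lower (66.1 and 69.4 CPM in KO EBd2, 254.5 and 246.4 CPM in fl/fl EBd2; -1.88 ± 0.05, adjusted p = 1.22e-10), while Sall3 was higher (15.6 and 13.1 CPM, against 3.51 and 3.46 CPM in fl/fl EBd2; 2.04 ± 0.23, adjusted p = 1.24e-05). Sall4 was lower by less (265 and 259 CPM, against 400 and 355 CPM in fl/fl EBd2; -0.52 ± 0.05, adjusted p = 3.27e-06). Among the spalt genes, then, 3 fell and 1 rose. Zic1, at a low level, was higher (1.96 and 2.15 CPM in KO EBd2, against 0.27 and 0.46 CPM in fl/fl EBd2; 2.44 ± 0.53, adjusted p = 0.00193). Sox2, a core pluripotency factor, was lower (-0.60 ± 0.04, adjusted p = 6.08e-08), as was the low Sox1 (-1.57 ± 0.36, adjusted p = 0.0025). Fgf4 fell by 0.73 ± 0.04 on the log2 scale (adjusted p = 2.44e-08). Grhl3 was higher (28.6 and 29.9 CPM, against 10.1 and 9.92 CPM in fl/fl EBd2; 1.55 ± 0.11, adjusted p = 2.64e-07) and Grhl1 was not called (0.03 ± 0.14, adjusted p = 0.853). Pou3f3 was higher at a low level (1.86 and 1.88 CPM, against 0.41 and 0.35 CPM in fl/fl EBd2; 2.30 ± 0.52, adjusted p = 0.00231), and Otx1 was not called (1.05 ± 0.53, adjusted p = 0.103). Foxd2 had 22 counts in KO EBd2 and 0 in fl/fl EBd2, at least 5.51-fold higher against a floor of 3 counts over the group.

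**Figure D3:**
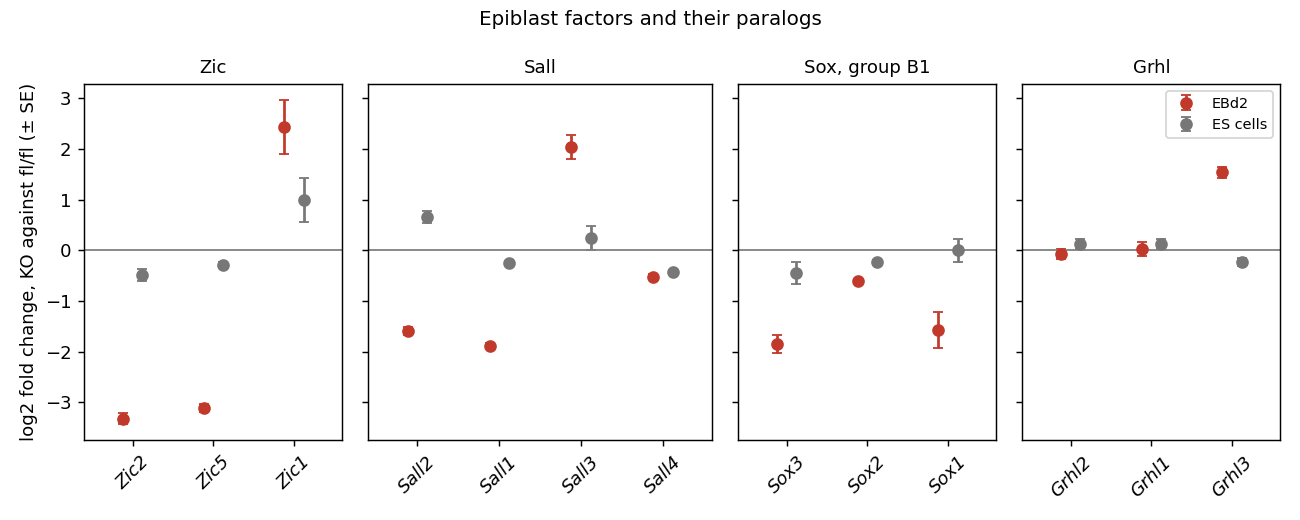
Fitted log2 fold change of KO against fl/fl, in EBd2 and in ES cells, for 4 gene families that hold 5 of the 9 genes and paralogs of theirs; bars are SE. In EBd2, Zic2 and Zic5 lie below -3 while Zic1 lies at 2.44, and Sall2 and Sall1 lie at -1.59 and -1.88 while Sall3 lies at 2.04.

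All 23 other genes of the formative and primed epiblast passed the filter. Of these, 13 were lower and 7 higher in KO EBd2 than in fl/fl EBd2. Among all genes tested 31.5% were called lower and 30.7% higher, so the share called higher was near that of all genes. The median of the 23 was -0.71, beside 0.00 over all genes. The 4 with the smallest p were lower. The de novo DNA methyltransferase Dnmt3b had 257.8 and 271.9 CPM in KO EBd2, against 1405 and 1499 CPM in fl/fl EBd2 (-2.45 ± 0.05, adjusted p = 2.65e-11). The kinase gene Pim2 had 43.9 and 46.4 CPM, against 230.2 and 248.9 CPM (-2.41 ± 0.05, adjusted p = 6.10e-11). Dnmt3a (-1.57 ± 0.05, adjusted p = 4.52e-10) and the Nodal antagonist Lefty1 (-1.61 ± 0.06, adjusted p = 1.72e-09) followed. Nodal, a ligand of the epiblast and streak, was higher with 169.5 and 157.2 CPM in KO EBd2, against 66.7 and 66.6 CPM in fl/fl EBd2 (1.29 ± 0.05, adjusted p = 3.13e-09). So was Wnt8a, chosen for the text after its values were seen, with 31.3 and 35.1 CPM, against 5.80 and 7.04 CPM (2.36 ± 0.14, adjusted p = 6.21e-08). Of 18 epithelial genes known as GRHL2 targets, 11 were higher (30.7% of all genes were) and 5 lower (31.5% were) in KO EBd2. Their median was 0.43. With library sizes alone as the scale 3 were lower, and a test against 1.5-fold called 4 higher and 3 lower. St14, a membrane protease (0.93 ± 0.04, adjusted p = 6.77e-09), Cldn4, a tight junction claudin (0.71 ± 0.05, adjusted p = 1.45e-07), and Rab15 (0.86 ± 0.06, adjusted p = 2.60e-07) were higher, and the splicing regulator Esrp1 was lower (-1.02 ± 0.05, adjusted p = 2.53e-08).

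**Figure D4:**
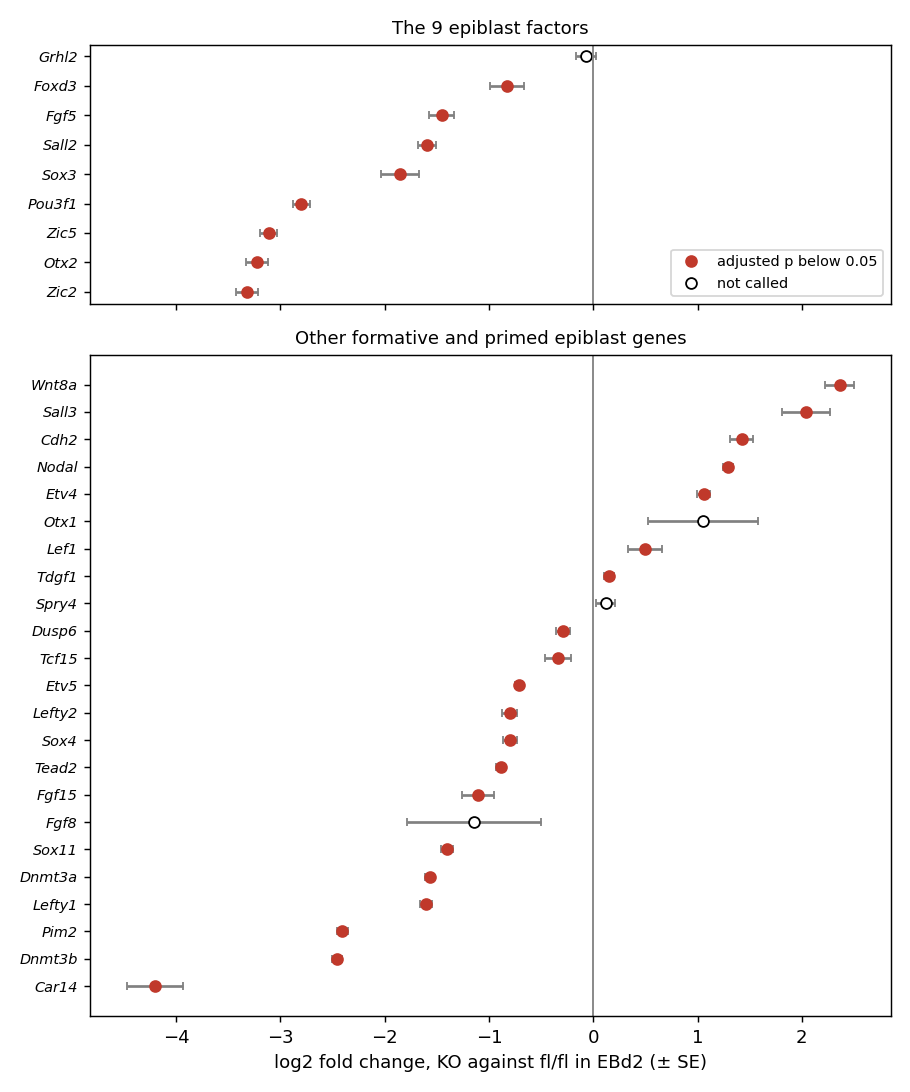
Fitted log2 fold change of KO against fl/fl EBd2 for the 9 genes (upper panel) and the 23 other formative and primed epiblast genes (lower panel), each panel sorted by value; bars are SE, and open points were not called. The 9 genes run from -3.32 (Zic2) to -0.07 (Grhl2), all at or below 0, while the other genes run from -4.20 (Car14) to 2.36 (Wnt8a).

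Markers of other cell types differed between the same groups. Among all genes tested, 30.7% were called higher in KO EBd2 and 31.5% lower. Embryoid bodies are mixtures, so fewer cells of a type and less RNA per cell cannot be told apart for any of the genes above. Summed over 15 primitive streak markers, KO EBd2 held 439 to 451 CPM, against 98.6 to 98.9 CPM in fl/fl EBd2. Of the 14 tested, 10 were higher and the other 4 were not called, with a median of 1.88, and brachyury (T), the defining streak factor, had 68.2 and 75.9 CPM in KO EBd2, against 0.675 and 1.5 CPM in fl/fl EBd2. Primitive and visceral endoderm markers summed to 2637 to 2719 CPM in KO EBd2, against 874 to 941 CPM in fl/fl EBd2 (13 of 14 tested higher, 1 lower, median 1.76), with Sox17 at 35.3 and 33.4 CPM, against 2.83 and 2.88 CPM. Surface ectoderm and epithelial markers summed to 1035 to 1063 CPM in KO EBd2, against 356 CPM in both fl/fl EBd2 libraries (12 of 14 higher, 1 lower, median 1.95), with Krt8 at 350.5 and 344.1 CPM, against 71.5 and 73.3 CPM. Krt18 had 245.6 and 243.0 CPM in KO EBd2, against 96.3 and 90.3 CPM in fl/fl EBd2. Krt5 (3.23 and 3.49 CPM), Krt14 (3.33 and 2.77 CPM) and Tfap2a (2.55 and 2.59 CPM) were low in KO EBd2. Their fl/fl EBd2 values were lower still: Krt5 had 0 and 0.115 CPM, Krt14 0.54 and 0.23 CPM and Tfap2a 1.21 and 0.92 CPM. Trp63 did not pass the filter. Tfap2c stood lower in KO EBd2 (61.0 and 55.4 CPM) than in fl/fl EBd2 (103.0 and 98.9 CPM). The sums of all 3 of these lists were thus higher in KO EBd2.

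Fibroblast feeder markers summed to 293 to 314 CPM in KO EBd2, against 71.4 to 75.8 CPM in fl/fl EBd2 (11 of 13 tested higher, the other 2 not called, median 2.38), and to 891 to 959 CPM in KO ES cells, against 748 to 790 CPM in fl/fl ES cells. Neuroectoderm markers summed to 92.4 to 92.7 CPM in KO EBd2, against 104.0 to 104.6 CPM in fl/fl EBd2 (4 of 11 tested higher, 4 lower, median 0.38). These counts were near the shares of all genes, 30.7% higher and 31.5% lower. With at least 50 counts asked for in 2 libraries, 1 was called higher. Lhx2 was at 8.92 and 8.94 CPM in KO EBd2, against 0.81 and 0.81 CPM in fl/fl EBd2, and Pax6 at 2.45 and 2.15 CPM, against 8.23 and 6.23 CPM. Neural crest markers, of which Foxd3 is one, summed to 48.7 to 50.7 CPM in KO EBd2, against 48.6 to 50.7 CPM in fl/fl EBd2 (6 of 8 tested higher, 1 lower, median 0.89; 1 higher with DESeq2). The 1 lower marker was Foxd3 itself (16.4 and 11.6 CPM, against 22.7 and 26.7 CPM in fl/fl EBd2), so the like sums include its lower level. Markers at 0 counts were Hes5 in KO EBd2, and Neurog2, Dlx5 and Tfap2b in fl/fl EBd2. The part of these markers in the differences of the 9 genes was not tested.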

How the data were processed

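Poly(A)-selected RNA of 8 mouse libraries was measured, 2 in each of 4 groups. The deposited table holds raw counts per gene symbol, whole numbers with no normalization, and 9800 of its 36255 genes have 0 counts throughout. The submitters' processing notes name the trimmer Trim Galore 0.6.7, with GRCm38 and mm10 as builds. Aligner, counter, annotation and strand setting are not stated there. GENCODE vM21 held 34715 of the symbols (95.8%) once.

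edgeR 4.0.16 was run in R 4.3.3. filterByExpr kept 16542 genes, TMM factors scaled the libraries (7858452 to 23343471 counts), and 4 group means were fitted to all 8 libraries. The quasi-likelihood test was two-sided, with the Benjamini-Hochberg correction over all genes tested and a threshold of 0.05. Libraries of a group varied by a common 3.4% beyond counting noise, on 4 residual degrees of freedom. Intervals of fold changes are 95% intervals from SE and the total degrees of freedom. Replicate pairs differed by more than sampling noise (chi-square per degree of freedom 2.1 to 2.81). Besides the 9 genes, the 3 genes most like each (2 for Grhl2), tested neighbours within 50 kb and tested paralogs are named. Named genes of the other lists are among the 4 called with the smallest p in a contrast, unless stated. Exceptions are Krt5, Krt14, Tfap2a and Trp63, Car14 as the lowest value of its list, and the markers at 0 counts. 2 genes are not reported here. The 9 genes and the lists were chosen with earlier results of these data known. Alternatives were RLE and library-size scaling, DESeq2 1.42.0, other filters on low counts, a test against 1.5-fold, a fit of only the groups compared, a lot block, thinning to one depth and leaving out each library.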

Additional observations from a re-analysis of the deposited data

Results flagged for a closer look

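The effect of the KO in EBd2 differed from that in ES cells by the interaction test of edgeR, which flagged 8 of the 9 epiblast genes: Otx2 (-3.08 on the log2 scale), Pou3f1 (-2.88), Zic2 (-2.83), Zic5 (-2.82), Sall2 (-2.24), Fgf5 (-1.59), Sox3 (-1.40) and Foxd3 (-1.01). Each of these values is the KO effect in EBd2 minus the KO effect in ES cells, so a negative one means that KO lay lower against fl/fl in EBd2 than in ES cells. Across the 16542 genes tested 25.7% were called negative in this test and 22.4% positive.

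Among the paralogs the same test flagged 7. Sall1 (-1.64), Sox1 (-1.57), Sox2 (-0.37) and Fgf4 (-0.35) were negative. Pou3f3 (2.15), Sall3 (1.80) and Grhl3 (1.78) were positive, so that Sall3 moved against Sall1 and Sall2. Pou3f3 rests on under 2 CPM in KO EBd2 and was not called with DESeq2 (adjusted p = 0.081), nor without lot 1 of KO ES cells (0.0501), lot 12 of fl/fl EBd2 (0.0644) or lot 2 of fl/fl ES cells (0.0663). Fgf5 was not called without lot 1 of KO ES cells (-0.52, adjusted p = 0.579), nor with all libraries thinned to one depth (0.0689).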

How the results depend on the processing

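No paired design is given in the labels, and any 2 groups compared share lot 1 alone. Deviations of the lot 1 libraries from their group means correlated between -0.02 and 0.02 across groups. Taken over all genes, this value cannot exclude a shared effect of a lot on some genes. With the lot as a replicate block, the interactions of Foxd3 (-0.62, adjusted p = 0.107) and Sox3 (-1.14, adjusted p = 0.0589) were not called, and 2236 genes were called in ES cells, against 3926 without it.

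Of 756 values of the 9 genes under 17 alternatives, 725 kept their direction and their side of the threshold. No alternative turned a called value. Values that were not called and changed sign were Grhl2 in EBd2 (0.16 with library sizes only, -0.17 to 0.035 without 1 library), Otx2 in EBd2 against ES cells in KO (0.13 with library sizes only, 0.024 with a stricter filter, 0.11 with the block, -0.13 to 0.078 without 1 library), Foxd3 in ES cells (-0.012 with the block), Fgf5 in ES cells (-0.93 to 0.72 without 1 library), Grhl1 in EBd2 (-0.075 with the block, -0.17 to 0.24 without 1 library) and Spry4, one of the other formative genes, in EBd2 (-0.030 to 0.31 without 1 library). The cause was not tested. Fgf5's interaction had an adjusted p of 0.0689 at equal depth.

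Tested against 1.5-fold, 3910 genes were called in EBd2 (10289 otherwise), 17 in ES cells (3926), 3043 in EBd2 against ES cells in fl/fl (9763), 3733 in KO (10721) and 2331 in the interaction (7948), and in ES cells 0 of the 9 genes were called higher (1) and 0 lower (2). This follows from the harder test. At equal depth 2107 genes and 0 of the 9 lower were called in ES cells. Leaving out 1 library gave 1909 to 3958 genes and 0 to 2 of the 9 lower in ES cells. Library sizes alone moved the median of all genes by 0.23 in EBd2, with 67.9% of calls higher, against 49.3%, and in ES cells 72.1% were higher, against 46.0%. In EBd2 against ES cells in KO 61.9% were higher, against 49.0%, and in the interaction 62.6%, against 46.6%. A stricter filter left 2278 genes called with at least 2-fold in EBd2, against 3484, and called 1 neuroectoderm marker higher, against 4. DESeq2 called 0 endoderm markers lower, against 1. Fgf5 in ES cells rests on 6 to 20 counts per library.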

Other observations

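Of 13 naive pluripotency genes tested, 6 were higher (30.7% of all genes were) and 5 lower (31.5% were) in KO EBd2 than in fl/fl EBd2. Their median was -0.04. A test against 1.5-fold called 2 lower. The 4 with the smallest p hold 3 higher genes and 1 lower. The summed level of the 13 was 1219 to 1277 CPM in KO EBd2, against 1047 to 1104 CPM in fl/fl EBd2, and 2073 to 2100 CPM in KO ES cells, against 2502 to 2536 CPM in fl/fl ES cells. In ES cells 9 of the 13 were called lower in KO and 0 higher, with a median of -0.24. Among all genes 12.8% were lower and 10.9% higher in that comparison. Tbx3, a T-box factor of naive cells, had 165.6 and 165.8 CPM in KO EBd2, against 35.1 and 32.1 CPM in fl/fl EBd2 (2.31 ± 0.05, adjusted p = 6.10e-11 by edgeR). Fgf4, a ligand that drives exit from the naive state, was lower with 123.4 and 119.6 CPM, against 199.3 and 204.0 CPM (-0.73 ± 0.04, adjusted p = 2.44e-08). Klf4, a Krüppel-like factor, had 42.4 and 39.5 CPM, against 13.8 and 11.5 CPM (1.70 ± 0.09, adjusted p = 3.25e-08), and Klf5 118.8 and 119.4 CPM, against 60.5 and 61.5 CPM (0.96 ± 0.05, adjusted p = 1.98e-08).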
